A study of Homo sapiens with 46 samples.

Results

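Transcript levels were examined for NFE2L2, the gene for the transcription factor NRF2, for SLC7A11, the cystine-importing subunit of the antiporter known as system xc-, and for 7 further NRF2 targets with roles in glutathione, thioredoxin, quinone and heme metabolism (GCLM, GCLC, TXNRD1, SRXN1, NQO1, HMOX1 and GPX2). These are 9 of the 62756 genes in the count table, and all 9 passed the filter on low counts. The set was chosen by the lower SLC7A11 level of the Lamin B1 line under auxin, so all values of the 9 genes in that line, at 0 h too, are given as a description, with no test. The values of the other lines were tested.

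The cells were DLD-1, an established human colorectal adenocarcinoma line. The parental line carries no tag, and each of the 3 derived lines carries an auxin-inducible degron at the N-terminus of 1 lamin made from its own locus. The line called LAC has it on Lamin A/C, LB1 on Lamin B1 and LB2 on Lamin B2. Lamins are intermediate filament proteins beneath the inner nuclear membrane, and the degron sends the tagged protein to the proteasome when auxin, a plant hormone, is present. Auxin, from a DMSO stock, was given to each line at 1 mM for 0, 16 or 96 h, which gave 12 groups and 46 libraries, with 4 per group except 3 each for LB1 at 0 h and LB2 at 96 h. The parental line received the same auxin and so measures the response to the compound without a degron. Whether the 0 h wells received DMSO, and whether each derived line is a single clone, is not given in the sources used here. A replicate was a well of a culture plate, so p-values measure the spread between wells, which may be technical. The degron acts on the protein, so RNA levels do not check the depletion.

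NRF2 is held low by KEAP1, which brings it to a CUL3 ubiquitin ligase for degradation. Oxidants and electrophiles modify KEAP1, after which NRF2 accumulates, pairs with a small MAF protein and binds antioxidant response elements near its targets, where BACH1 competes with it. Much of NRF2 control is therefore on the protein, and the RNA of its targets is commonly read in place of the RNA of NFE2L2. SLC7A11 is also a target of ATF4, the transcription factor of amino acid stress, and the cystine it brings in supplies cysteine for glutathione, the cell's main thiol antioxidant. NQO1 is often abundant in colorectal cancer cells.

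The promoter windows of members whose RNA changed in LAC or in several lines (GCLM, GCLC, NQO1 and TXNRD1) are shown because the binding motif of NRF2 can be looked for in them directly. Each runs from 250 bases before to 50 bases after a transcription start, on the gene's own strand, from RefSeq on GRCh38.p14. Capitals mark the antioxidant response core TGACNNNGC on either strand.
GCLM, chr1:93909381-93909680, minus strand: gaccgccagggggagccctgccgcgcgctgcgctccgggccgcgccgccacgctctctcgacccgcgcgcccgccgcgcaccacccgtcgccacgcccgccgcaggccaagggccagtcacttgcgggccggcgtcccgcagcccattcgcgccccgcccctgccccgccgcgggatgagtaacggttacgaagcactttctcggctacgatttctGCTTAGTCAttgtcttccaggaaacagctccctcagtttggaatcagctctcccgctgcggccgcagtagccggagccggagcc
GCLC, chr6:53545052-53545351, minus strand: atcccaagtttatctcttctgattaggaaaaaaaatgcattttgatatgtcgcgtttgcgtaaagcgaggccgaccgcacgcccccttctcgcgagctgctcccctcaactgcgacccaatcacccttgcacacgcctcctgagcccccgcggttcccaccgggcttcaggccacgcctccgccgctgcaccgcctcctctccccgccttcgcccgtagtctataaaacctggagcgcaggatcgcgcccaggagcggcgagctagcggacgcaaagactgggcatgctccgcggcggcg
NQO1, chr16:69726511-69726810, minus strand: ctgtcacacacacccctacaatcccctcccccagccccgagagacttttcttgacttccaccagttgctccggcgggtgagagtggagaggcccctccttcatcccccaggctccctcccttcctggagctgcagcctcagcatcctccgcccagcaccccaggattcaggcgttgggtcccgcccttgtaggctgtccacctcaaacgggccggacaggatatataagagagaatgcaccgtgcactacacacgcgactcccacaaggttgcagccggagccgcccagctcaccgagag
TXNRD1, chr12:104286782-104287081, plus strand: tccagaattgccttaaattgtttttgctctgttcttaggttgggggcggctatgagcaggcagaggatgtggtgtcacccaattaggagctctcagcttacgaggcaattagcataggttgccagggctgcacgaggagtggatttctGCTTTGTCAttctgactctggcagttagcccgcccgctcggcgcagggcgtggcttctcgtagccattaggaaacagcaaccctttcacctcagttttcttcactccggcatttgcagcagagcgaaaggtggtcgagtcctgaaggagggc

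The sequence table held 9 windows for 7 of the 9 genes. SLC7A11 and HMOX1 were not matched. The core occurred in 4 windows of 3 genes, against 13.3% of 35116 promoters of that length. In the GCLM window it read GCTTAGTCA on the strand shown, with its leading base at position -34 from the start. In the TXNRD1 window shown it read GCTTTGTCA at position -102. Another, more upstream TXNRD1 start (chr12:104215529-104215828) held the core as TGACTTCGC at -99 and as GCTCCGTCA at -8. The GPX2 window (chr14:64942696-64942995) held GCTAAGTCA at -122. The core followed by an A, a longer form of the motif, occurred in 1 window each of GCLM, TXNRD1 and GPX2 and in 3.18% of all promoters. The windows of NFE2L2, GCLC, NQO1 and SRXN1 held no match, which says only that these letters were not in these windows. The ATF4 core TGATGNAA occurred in 0 of the 7 genes and in 3.62% of promoters. No relation between a match and a change in RNA was tested.

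Library totals ran from 479446 counts (LB2 at 16 h, replicate 3) to 37309421, with a median of 11533218. Of the 6 libraries under 5000000 counts, 5 belonged to 0 h groups, the groups that every change with auxin is measured from. Epithelial markers were present in every library, with a summed level of 5593 to 12630 CPM (counts scaled to a common library size by TMM, in parts per 1e6), although VIL1, the gene for the brush border protein villin, had group means of 0.814 to 2.72 CPM. Fibroblast markers summed to at most 6.1 CPM, with COL1A2 and DCN at 0 in all libraries, leukocyte markers to at most 0.927 CPM and endothelial markers to 2.17 to 17.5 CPM. COL1A1, a fibroblast collagen, fell in LAC from 3.07 ± 1.97 CPM at 0 h to 0.849 ± 0.41 at 96 h (SD, n = 4 each; edgeR adjusted p = 0.0195), with overlapping libraries. Of the 9 epithelial markers, 2 were higher and 2 lower in LAC than in the parental line at 0 h, 4 of 9 against 15.8% of all genes called. Their log2 differences ran from -1.38 to 0.52, with a median of 0.10 against -0.06 over all genes. CDH17, an intestinal cadherin, was one of the lower ones (25.3 ± 2.11 against 67.1 ± 12.9 CPM, SD, n = 4 each) and rose in LAC to 104 ± 3.95 CPM at 96 h (log2 change 2.03, edgeR adjusted p = 3.73e-13). CDH17 also rose in the parental line by 96 h (1.43, edgeR adjusted p = 5.02e-09). The part of these marker changes in the results below was not tested.

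Levels between genes were compared per length of exon (TMM-scaled CPM divided by the kilobases of exon, RPKM). In the parental line at 0 h, NQO1, a quinone reductase, stood at 109 ± 4.75 RPKM (SD, n = 4) and TXNRD1, the cytosolic thioredoxin reductase, at 101 ± 6.84. These are the most abundant of the 9 transcripts, and their replicates overlapped. SLC7A11 followed at 20.3 ± 2.1 RPKM, then GCLM, the modifier subunit of glutamate-cysteine ligase, at 11.2 ± 1.39. NFE2L2 itself was at 7.83 ± 0.834 RPKM and GCLC, the catalytic subunit of the ligase, at 4.67 ± 0.546. HMOX1, which encodes the heme-degrading enzyme heme oxygenase 1, was at 3.7 ± 1.04 RPKM and overlapped GCLC. GPX2, an epithelial glutathione peroxidase, was at 1.56 ± 0.606 RPKM and SRXN1, which repairs overoxidised peroxiredoxins, at 1.29 ± 0.42, with overlapping replicates. The exon length used for NFE2L2 covers 14975 bases of a gene model that spans chr2:177218667-177392756, so its RPKM is low for the number of reads it drew.

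**Figure D1:**
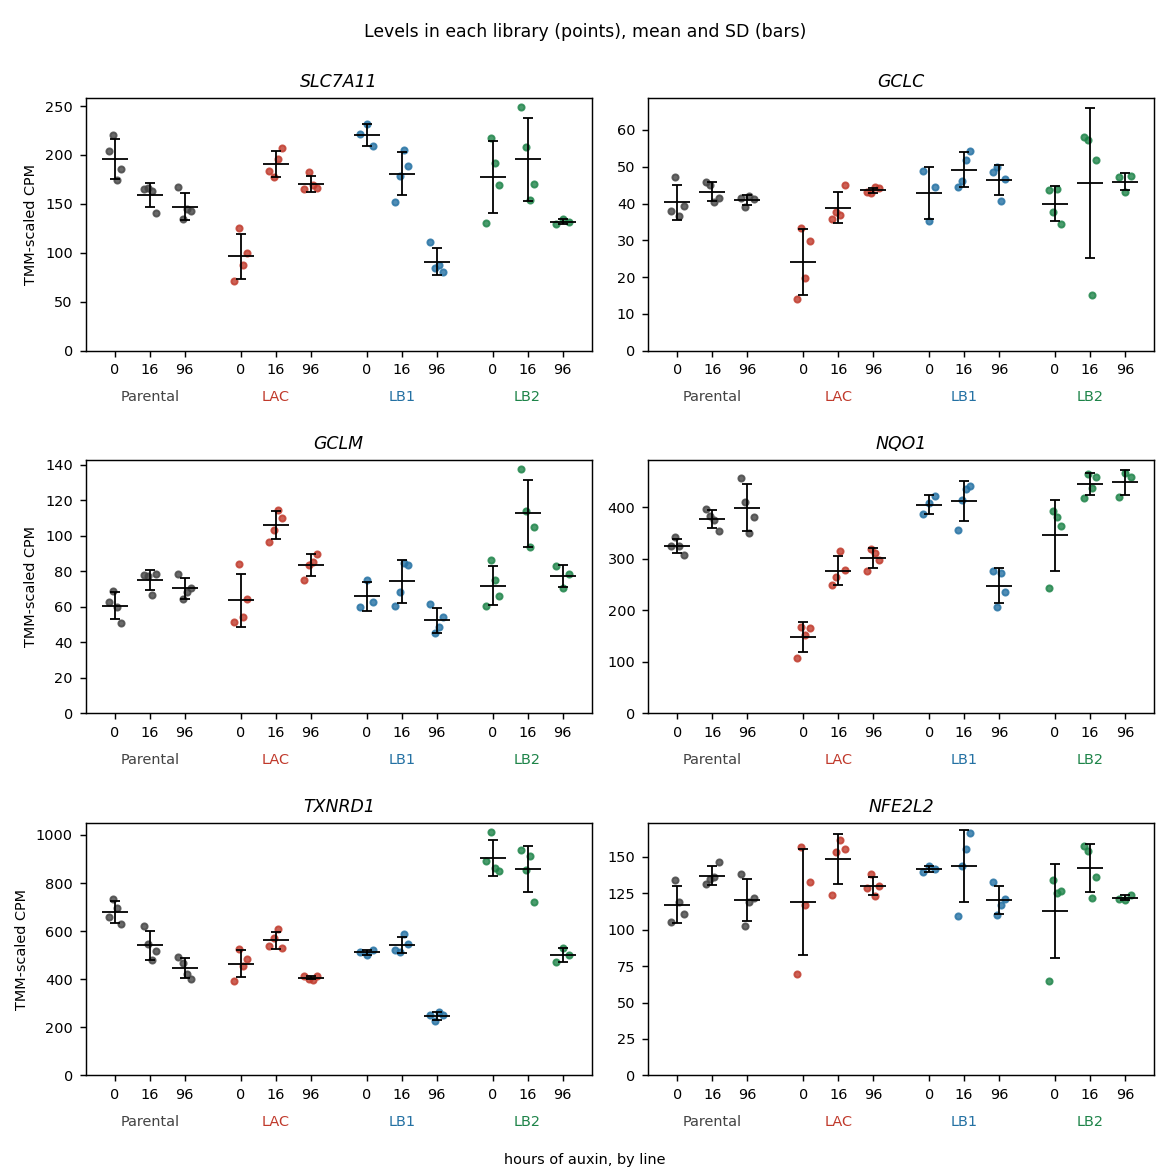
TMM-scaled CPM (vertical axis) of 6 genes in each library (points), by line and hours of auxin (horizontal axis), with the group mean and SD as bars. SLC7A11 and NQO1 start lower in LAC than in the parental line and rise there by 16 and 96 h, while in LB1 SLC7A11, NQO1 and TXNRD1 are lowest at 96 h.

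The regulator NFE2L2 (ENSG00000116044.17, chromosome 2, minus strand) was called in no comparison. In the parental line its mean was 117 ± 12.5 CPM at 0 h, 137 ± 6.46 at 16 h and, by 96 h, 120.4 ± 14.4 (SD, n = 4 each). In LAC it was 119 ± 36.5, 148.5 ± 17 and 130.1 ± 6.31 CPM at the same times (SD, n = 4 each). Replicate 1 of LAC at 0 h, which held 3318819 counts, stood at 69.9 CPM, against 117 to 156 CPM in the other libraries of the group. The log2 change of NFE2L2 at 96 h was 0.11 in LAC (95% interval -0.19 to 0.42, edgeR adjusted p = 0.687) and 0.04 in the parental line (-0.27 to 0.35, edgeR adjusted p = 0.921). The gene model overlaps HNRNPA3 and AGPS on the other strand, and whether reads were counted by strand is not given in the sources used here.

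LAC differed from the parental line before any auxin was added: 4 of the 9 genes were lower at 0 h and none was higher, against 15.8% of all 21484 genes called in either direction. The median log2 difference of the 9 genes was -0.55, against -0.06 over all genes tested. The genes were SLC7A11, NQO1, GCLC and TXNRD1, and each had no overlap between the lines. These are bulk libraries, in which fewer cells with a transcript and less of it per cell cannot be told apart.

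SLC7A11 (ENSG00000151012.13, chr4:138164097-138242349, minus strand, overlapped by the antisense gene SLC7A11-AS1) stood at 204, 220.1, 174 and 186 CPM in the 4 parental libraries at 0 h. In the 4 LAC libraries at 0 h it stood at 71.5, 126, 88.0 and 99.9 CPM. Every LAC library lay below every parental library, and LAC replicate 1 was the lowest. The log2 difference was -1.01 ± 0.14 (standard error; edgeR adjusted p = 1.08e-06). It was -0.87 without LAC replicate 1 (edgeR adjusted p = 3.03e-05) and -0.77 after each library's trend with GC content and length was taken out (edgeR adjusted p = 5.9e-09), a step called trend removal below.

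NQO1 (ENSG00000181019.13, chr16:69706996-69726668, minus strand) reduces quinones by a transfer of electron pairs and is a standard readout of NRF2. It stood at 324, 342, 325 and 307 CPM in the parental libraries at 0 h and at 106, 168, 152 and 165 CPM in the LAC libraries. The highest LAC library was below the lowest parental one. The log2 difference was -1.13 ± 0.13 (edgeR adjusted p = 8.09e-09), the largest of the 9 genes in this comparison.

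GCLC (ENSG00000001084.13, chr6:53497341-53616970, minus strand), which joins glutamate to cysteine in the rate-limiting step of glutathione synthesis, stood at 38.0, 47.1, 36.6 and 39.4 CPM in the parental libraries and at 13.9, 33.2, 19.7 and 29.8 CPM in LAC. The groups did not overlap, and LAC replicate 1 was again the lowest. The log2 difference was -0.68 ± 0.17 (edgeR adjusted p = 0.00365). A fit to these 2 groups alone lost the call (-0.75, edgeR adjusted p = 0.0617).

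TXNRD1 (ENSG00000198431.18, chr12:104215779-104350307, plus strand), which returns oxidised thioredoxin to its active form, differed from the parental line at 0 h in LAC and LB2. The parental mean was 680 ± 45.9 CPM and the LAC mean 463.5 ± 55.9 (SD, n = 4 each). The LB1 mean was 512 ± 9.5 CPM (SD, n = 3), and the LB2 mean was 904 ± 74.1 CPM (SD, n = 4). LAC and LB1 lay wholly below the parental libraries and LB2 wholly above them. The log2 differences from parental were -0.55 ± 0.10 in LAC (edgeR adjusted p = 0.0002) and 0.41 ± 0.10 in LB2 (edgeR adjusted p = 0.00715), and, as a description, -0.41 in LB1. The LB2 difference lost its call when no filter on counts was applied (edgeR adjusted p = 0.148) and in a fit to the compared groups alone (0.43, edgeR adjusted p = 0.0736). TXNRD1 was the only member called in LB2 at 0 h, 1 of 9, where 8.21% of all genes were called. By the same threshold 1 of 9 passed in LB1 at 0 h, where the share was 4.05%, and nothing is read from that count.

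The remaining members did not pass the threshold in LAC at 0 h. GCLM (ENSG00000023909.10, chr1:93885199-93909456, minus strand) was at 63.5 ± 14.9 CPM in LAC and 60.5 ± 7.55 in the parental line (SD, n = 4 each), a log2 difference of 0.08 (95% interval -0.19 to 0.35, edgeR adjusted p = 0.751). The modifier subunit of glutamate-cysteine ligase was thus not detectably different where the catalytic subunit was lower; the contrast between the 2 genes was not tested. HMOX1 (ENSG00000100292.18, chr22:35380361-35394214, plus strand) was at 5.33 ± 1.65 CPM in LAC and 8.53 ± 2.41 in the parental line (SD, n = 4 each). Its log2 difference of -0.61 had an edgeR adjusted p of 0.0723, and it passed the threshold with DESeq2 (-0.67, adjusted p = 0.0319) and after trend removal (-0.77, edgeR adjusted p = 0.0285).

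**Figure D2:**
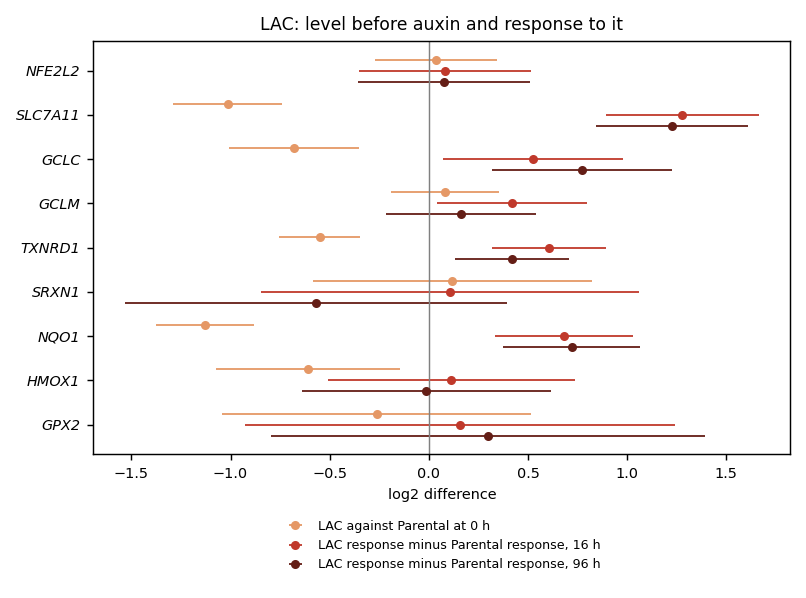
Log2 differences (horizontal axis) of the 9 genes with 95% intervals: LAC against parental at 0 h, and the LAC response to auxin minus the parental response at 16 and at 96 h. SLC7A11 lies at -1.01 at 0 h and at 1.28 and 1.23 in the responses; all 3 values share the LAC and parental libraries at 0 h.

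Within LAC, auxin was followed by higher levels of SLC7A11, NQO1, GCLC and GCLM at 16 h, and of SLC7A11, NQO1 and GCLC at 96 h, while no member fell. At 16 h, 4 of 9 genes rose, against 1.78% of all genes called, and the median log2 change of the 9 was 0.40 against -0.02 over all genes. At 96 h, 3 of 9 rose, against 15.4% of all genes called, with a median of 0.11 against 0.03. These changes and the 0 h differences above share the LAC libraries at 0 h, including replicate 1.

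SLC7A11 in LAC stood at 184, 177, 196 and 207 CPM at 16 h and at 165, 183, 169 and 166 CPM at 96 h. All 8 libraries lay above the highest 0 h library, 126 CPM. The log2 change was 0.97 ± 0.14 at 16 h (edgeR adjusted p = 2.19e-05) and 0.81 ± 0.14 at 96 h (edgeR adjusted p = 5.57e-05). After trend removal the changes were 0.63 (edgeR adjusted p = 9.13e-06) and 0.47 (edgeR adjusted p = 9.15e-05).

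NQO1 in LAC stood at 249.4, 265, 315 and 278 CPM at 16 h and at 276, 320.1, 311 and 298 CPM at 96 h, in each case above all 4 LAC libraries at 0 h. The log2 change was 0.90 ± 0.13 at 16 h (edgeR adjusted p = 1.33e-05) and 1.02 ± 0.13 at 96 h (edgeR adjusted p = 1.03e-07). At 96 h LAC still lay below the parental line, whose libraries held 457, 411, 351 and 381 CPM. A test of that difference at 96 h was not part of the design.

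GCLC in LAC stood at 35.9, 37.6, 36.9 and 45.1 CPM at 16 h and at 43.1, 42.9, 44.4 and 44.1 CPM at 96 h. The 96 h libraries were the tightest group of this gene in the study, with an SD of 0.726 CPM, and the parental 96 h libraries held 39.1 to 42.1 CPM. The log2 change was 0.62 ± 0.16 at 16 h (edgeR adjusted p = 0.0354) and 0.79 ± 0.16 at 96 h (edgeR adjusted p = 0.000715). The 16 h change was lost when LAC replicate 1 or 3 at 0 h, or replicate 2, 3 or 4 at 16 h, was left out (edgeR adjusted p 0.0732 to 0.205), and after trend removal (0.41, edgeR adjusted p = 0.0625).

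GCLM in LAC stood at 51.1, 84.1, 54.2 and 64.6 CPM at 0 h, at 96.4, 103, 114 and 109.7 at 16 h, and at 74.8, 83.6, 85.4 and 89.5 at 96 h. The 16 h libraries did not overlap those of 0 h, and the 96 h libraries did. The log2 change was 0.72 ± 0.14 at 16 h (edgeR adjusted p = 0.00245) and 0.48 there after trend removal. At 96 h it was 0.37 (95% interval 0.11 to 0.64, edgeR adjusted p = 0.0523), which passed with DESeq2 (0.38, adjusted p = 0.0154) and was 0.16 after trend removal (edgeR adjusted p = 0.296). TXNRD1 in LAC had a mean of 562.5 ± 35.3 CPM after 16 h and one of 406 ± 6.96 after 96 h (SD, n = 4 each). Its log2 change was 0.28 at 16 h (edgeR adjusted p = 0.123) and -0.19 at 96 h (edgeR adjusted p = 0.221). The 96 h change passed at -0.34 after trend removal (edgeR adjusted p = 0.0105) and at -0.19 with DESeq2 (adjusted p = 0.0466).

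The 16 h calls in LAC rested on the spread shared over all 12 groups. In a fit to the 8 LAC libraries of 0 and 16 h alone, 0 of the 9 genes and 11 of all genes were called, with SLC7A11 at 0.95 (edgeR adjusted p = 0.0793) and NQO1 at 0.87 (edgeR adjusted p = 0.0866). The 96 h calls held in that kind of fit.

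**Figure D3:**
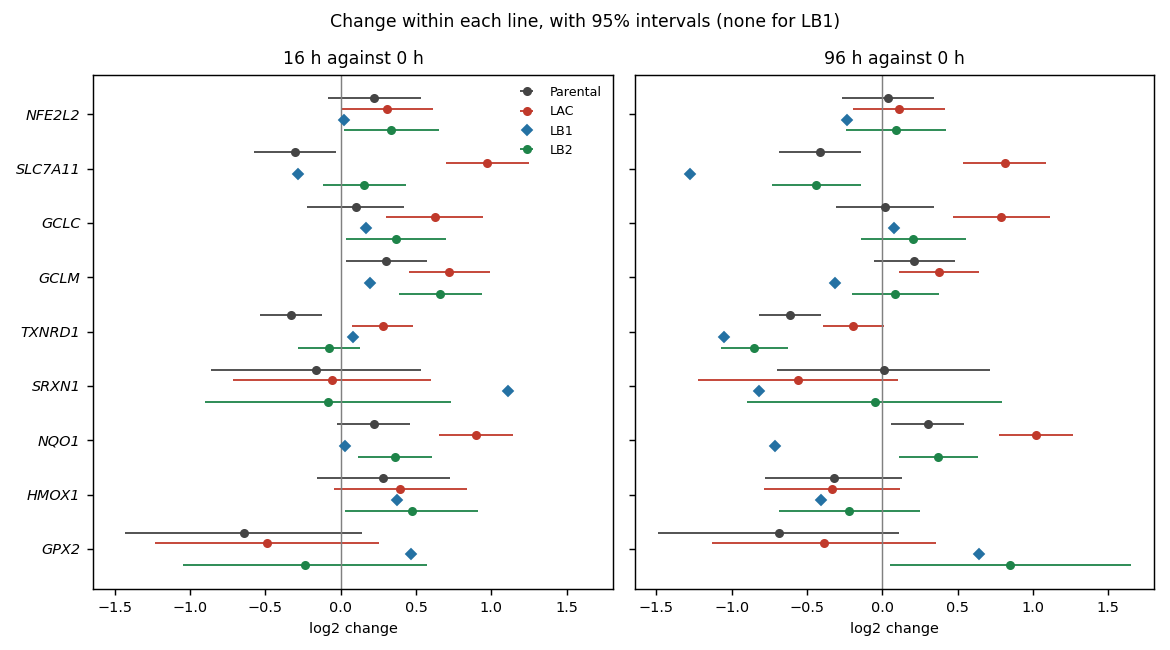
Log2 change of each gene at 16 h and at 96 h against 0 h of the same line (horizontal axis), with 95% intervals for the parental line, LAC and LB2. LB1 is drawn as diamonds with no interval because its values chose the genes; SLC7A11 is at 0.81 in LAC and -0.41 in the parental line at 96 h.

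The parental response to auxin was subtracted to ask what LAC did beyond the compound. At 16 h only SLC7A11 was called among the members, 1 of 9, where 0.116% of all genes were called. At 96 h SLC7A11, GCLC and NQO1 were called, 3 of 9, where 7.4% were called. In each case the response was higher in LAC. The mean level was also higher there for SLC7A11 at 16 h (191 against 159 CPM) and 96 h (171 against 147). For GCLC at 96 h it was 43.6 against 41.0 CPM. NQO1 at 96 h was lower in LAC (301 against 400 CPM; n = 4 in every group). These levels under auxin were not tested between the lines. The median differences in response of the 9 genes were 0.42 at 16 h and 0.30 at 96 h, against 0.05 and 0.06 over all genes. For SLC7A11 the difference in response was 1.28 ± 0.20 at 16 h (edgeR adjusted p = 0.000461) and 1.23 ± 0.20 at 96 h (edgeR adjusted p = 0.000339). It stayed called in all 24 alternative fits at each time, with values from 0.97 to 1.41 and from 0.90 to 1.44. For NQO1 at 96 h it was 0.72 ± 0.18 (edgeR adjusted p = 0.0103), lost with no filter on counts (0.72, edgeR adjusted p = 0.0588). For GCLC at 96 h it was 0.77 ± 0.23 (edgeR adjusted p = 0.033), lost in 10 of 24 alternative fits, of which 9 left out a single replicate (parental 1, 2 or 4 at 0 h or 2 at 96 h; LAC 1 or 3 at 0 h or 1, 2 or 3 at 96 h), and at 0.59 without LAC replicate 1 at 0 h (edgeR adjusted p = 0.0834). TXNRD1 and NQO1 missed the threshold at 16 h (0.61, edgeR adjusted p = 0.0883, and 0.68, edgeR adjusted p = 0.0965). Both passed with DESeq2 (0.63, adjusted p = 6.35e-06, and 0.70, adjusted p = 0.00264), under both other scalings and after trend removal.

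In the parental line, TXNRD1 was the only member called at either time, and it fell. At 16 h 1 of 9 members was called, against 9.01% of all genes, and at 96 h 1 of 9, against 7.78%. TXNRD1 stood at 659, 734, 697 and 628 CPM at 0 h, 619, 548, 480.0 and 516 at 16 h, and 492, 467, 421 and 401 at 96 h. Both later groups lay wholly below 0 h. It fell by 0.33 ± 0.10 (log2) at 16 h (edgeR adjusted p = 0.0376) and by 0.61 ± 0.10 at 96 h (edgeR adjusted p = 0.000105). The 16 h call was lost with no filter on counts (-0.24, edgeR adjusted p = 0.517) and when replicate 1, 2 or 3 at 0 h or replicate 2 or 3 at 16 h was left out (edgeR adjusted p 0.0814 to 0.171).

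SLC7A11 in the parental line stood at 166, 166, 163 and 141 CPM at 16 h and at 167, 134, 145 and 143 CPM at 96 h. Every value was below the lowest 0 h library, 174 CPM. The log2 changes of -0.30 ± 0.14 (edgeR adjusted p = 0.158) and -0.41 ± 0.14 (edgeR adjusted p = 0.055) did not pass. They passed with DESeq2 (-0.40, adjusted p = 0.0225, and -0.48, adjusted p = 0.00384) and in several other fits, with edgeR adjusted p down to 0.00388 at 16 h and 0.000372 at 96 h. NQO1 had a mean of 325 ± 14.1 CPM at 0 h and, by 96 h, one of 399.9 ± 45.0 (SD, n = 4 each), with no overlap. Its log2 change of 0.30 did not pass (edgeR adjusted p = 0.127), and it passed without the libraries under 5000000 counts and after trend removal (edgeR adjusted p = 0.0466 and 0.0374).

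In LB2 at 16 h GCLM was the only member called, 1 of 9 against 1.81% of all genes. GCLM stood at 60.4, 86.0, 74.9 and 66.2 CPM at 0 h and at 138, 114, 93.5 and 105 at 16 h, with no overlap. It rose by 0.66 ± 0.14 (log2; edgeR adjusted p = 0.00594) and was at 82.9, 70.6 and 78.3 CPM at 96 h (log2 change 0.09, edgeR adjusted p = 0.844). The 16 h call was lost without replicate 4 at 0 h (0.61, edgeR adjusted p = 0.0556), without replicate 1 at 16 h (0.52, edgeR adjusted p = 0.115) and in a fit to these 2 groups alone (0.59, edgeR adjusted p = 0.705). At 16 h replicate 3 held only 479446 counts, and its GCLC level of 15.2 CPM lay far from the 51.9 to 58.1 CPM of the other libraries.

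In LB2 at 96 h TXNRD1 was the only member called, 1 of 9 against 3.55% of all genes. It stood at 891, 1012, 861 and 850.4 CPM at 0 h, 938, 856, 911 and 723 at 16 h, and 472, 531 and 502 at 96 h. The 3 libraries of 96 h lay far below all 8 earlier ones. Its log2 change was -0.85 ± 0.11 (edgeR adjusted p = 1.70e-06), a call kept in all 15 alternative fits. SLC7A11 stood at 131, 218, 192 and 169 CPM at 0 h and at 129.9, 134 and 132 at 96 h, a change of -0.44 ± 0.15 (edgeR adjusted p = 0.102). Replicate 1 at 0 h, with 1894447 counts, overlapped the 96 h group, and without it the change was -0.54 (edgeR adjusted p = 0.0313).

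The LB2 responses were not distinguished from the parental ones. By edgeR 0 of the 9 genes were called at 16 h, where 0.00465% of all genes were, and 0 at 96 h, where 0.368% were. DESeq2 also called 0 at each time. In the edgeR fit 1 gene at each time had an unadjusted p under 0.05, SLC7A11 at 16 h (0.46, 95% interval 0.07 to 0.85) and GPX2 at 96 h (1.54, 0.41 to 2.67). For TXNRD1 at 96 h the difference in response was -0.24 (95% interval -0.54 to 0.06, edgeR adjusted p = 0.525). For SLC7A11 it was -0.02 at 96 h (-0.42 to 0.38, edgeR adjusted p = 0.982), and for NQO1 0.07 (-0.29 to 0.43, edgeR adjusted p = 0.911).

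LB1 is the line whose values chose the set, so what follows describes it and supports nothing. SLC7A11 stood at 221, 232 and 209 CPM at 0 h, at 152, 179, 205 and 188 at 16 h, and at 111, 85.0, 87.7 and 80.7 at 96 h. The 96 h mean of 91.0 ± 13.4 CPM (SD, n = 4) is the lowest of the 12 group means and lies close to LAC at 0 h, 96.3 ± 22.8 (SD, n = 4). The log2 change at 96 h was -1.27. TXNRD1 went from 513, 502 and 521 CPM at 0 h to 251, 225, 263 and 251 at 96 h, a log2 change of -1.05. NQO1 went from 387, 409 and 422 CPM to 277, 206, 272 and 236, a change of -0.71.

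The other members of LB1 differed in their course. GCLC was at 42.9 ± 6.98 CPM at 0 h (SD, n = 3) and 46.5 ± 4 at 96 h (SD, n = 4), while SLC7A11 was lower. GCLM was at 65.8 ± 8.06 CPM at 0 h (SD, n = 3) and 52.2 ± 7.2 at 96 h (SD, n = 4). SRXN1 (ENSG00000271303.2, chr20:646615-653200, minus strand) was at 3.72 ± 1.958 CPM at 0 h (SD, n = 3), 6.72 ± 2.41 at 16 h and, by 96 h, 1.71 ± 0.391 (SD, n = 4 each). By the threshold used elsewhere 0 of 9 genes were called at 16 h (1.5% of all genes) and 3 of 9, all lower, at 96 h (3.17% of all genes); nothing is read from these counts.

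HMOX1, SRXN1 and GPX2 had the lowest CPM of the 9 genes in every group. Over all groups HMOX1 had means of 4.44 to 13.0 CPM, SRXN1 of 1.71 to 6.72 and GPX2 of 1.12 to 3.08, while 3 counts, the limit that a count of 0 allows, came to 6.26 CPM in the shallowest library and to 2.06 in the one after it. None of the 3 was called in any tested comparison. GPX2 (ENSG00000176153.13, chr14:64939152-64942746, minus strand, overlapped by CHURC1 on the other strand) stood at 3.46, 3.33 and 2.45 CPM in LB2 at 96 h, above the LB2 libraries of 0 h, 0.51 to 2.22 CPM. Its log2 change of 0.85 had a 95% interval of 0.05 to 1.65 (edgeR adjusted p = 0.291).

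**Figure D4:**
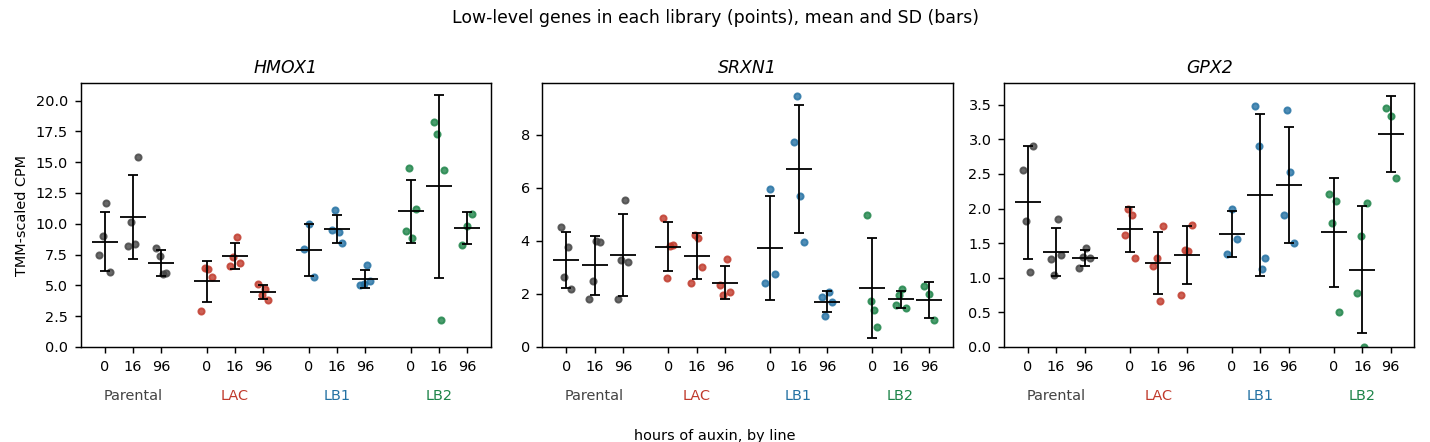
TMM-scaled CPM (vertical axis) of HMOX1, SRXN1 and GPX2 in each library (points), by line and hours of auxin (horizontal axis), with group mean and SD as bars. All group means lie between 1.12 and 13.0 CPM, and for GPX2 the LB2 libraries of 96 h lie above those of 0 h.

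By mean level over the 12 groups, SLC7A11 was highest in LB1 at 0 h (221 ± 11.3 CPM, SD, n = 3) and lowest in LB1 at 96 h. The parental line at 0 h (196 ± 20.3), LB2 at 16 h (196 ± 42.5) and LAC at 16 h (191 ± 13.1) followed within each other's spread (SD, n = 4 each), then LB1 at 16 h (181 ± 22.2), LB2 at 0 h (177 ± 36.7) and LAC at 96 h (171 ± 8.12). Below these came the parental line at 16 h (159 ± 12) and 96 h (147 ± 14.1; SD, n = 4 each) and LB2 at 96 h (132 ± 2.22, SD, n = 3). LAC at 0 h and LB1 at 96 h were lowest: their highest library held 126 CPM and the lowest library of any other group held 129.9 CPM. That gap is small beside the spread within LAC at 0 h, 71.5 to 126 CPM. The LB1 values chose the set, so this order is a description.

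Across the 12 group means of log2 CPM, the 36 pairs among the 9 genes had Pearson r from -0.63 to 0.78 with a median of 0.27, and 25 were above 0. These points share libraries and auxin exposure, so r is a description. They also include the LB1 groups, whose SLC7A11 values chose the set and hold its highest and lowest means. Likeness to SLC7A11 therefore rests in part on the values that chose it, and nothing is supported with it. GCLC and NQO1 were the most alike (0.78), then TXNRD1 and HMOX1 (0.73), while GCLM and GPX2 ran most opposite (-0.63). Of 10858 genes with a symbol and a mean of at least 5 CPM, the 5 whose group means followed SLC7A11 most closely were MBNL2 (r = 0.94), SEPTIN10 (0.91), SLC38A2 (0.90), PSAT1 (0.90) and CLIC4 (0.89). PSAT1 makes phosphoserine in serine synthesis and SLC38A2 imports neutral amino acids. MBNL2 is a splicing regulator, SEPTIN10 a cytoskeletal GTPase and CLIC4 a chloride intracellular channel protein. By Spearman's rho SLC38A2 (0.80) ranked only at 23.

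The NRF2 control genes were taken from a list of 10, all of which were tested. KEAP1, the inhibitor of NRF2, stood at 129 ± 18.9 CPM in LAC and 69.8 ± 10.5 in the parental line at 0 h (SD, n = 4 each), with no overlap and a log2 difference of 0.87 ± 0.15 (edgeR adjusted p = 7.32e-05). In the same comparison SQSTM1, a receptor that can sequester KEAP1, was higher (0.64, edgeR adjusted p = 0.0187), and RBX1, the RING subunit of the ligase, was lower (-0.48, edgeR adjusted p = 0.0333). That is 2 genes higher and 1 lower of 10, where 15.8% of all genes were called, with a median of 0.22 against -0.06 over all genes. The KEAP1 response to auxin at 96 h differed between LAC and the parental line by -0.73 ± 0.21 (edgeR adjusted p = 0.0299), with LAC at 103 ± 10.2 CPM and the parental line at 93.4 ± 10.9 (SD, n = 4 each). That is 1 of 10 called in this difference, against 7.4% of all genes. Within each line the KEAP1 change at 96 h was not called (log2 change 0.42 in the parental line and -0.31 in LAC). BACH1, the repressor, was called in no comparison and lay between 104 and 155.5 CPM in all group means. MAFF, a small MAF partner, fell in the parental line at 16 h (-0.77, edgeR adjusted p = 0.012) and 96 h (-0.75, edgeR adjusted p = 0.0151) and in LAC at 96 h (-0.88, edgeR adjusted p = 0.00166), where MAFK fell too (-0.92, edgeR adjusted p = 0.00947).

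Of 27 other NRF2 targets, 25 were tested. In LAC at 0 h, 6 were lower and 1 was higher than in the parental line, 7 of 25 against 15.8% of all genes, with a median of -0.09 against -0.06. CYP4F11, a cytochrome P450, had 1.02 ± 0.616 CPM in the untagged parent and 0.0397 ± 0.0794 in LAC; UGT1A6, a glucuronosyltransferase, at 2.25 ± 0.665 and 0.148 ± 0.135; and AKR1B10, an aldo-keto reductase, at 0.721 ± 0.257 and 0.0586 ± 0.0757 (SD, n = 4 each). All 3 passed (edgeR adjusted p = 0.000313, 3.12e-05 and 0.00332), with LAC near or at 0 counts. Each has related or overlapping genes among which the counting could split reads.

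At 16 h in LAC 0 of 10 NRF2 control genes were called, where 1.78% of all genes were. Of the other NRF2 targets 1 of 25 rose, and of the cystine and glutathione genes 1 of 13. Of the peroxide defence genes and of the ATF4 targets, both described below, 1 of 17 rose in each. No gene of these lists fell. Among those that rose were ME1, a malic enzyme (0.62, edgeR adjusted p = 0.00556), and CAT, catalase (0.74, edgeR adjusted p = 0.00984). MTHFD2, a mitochondrial folate enzyme, was another (0.48, edgeR adjusted p = 0.0117). At 96 h in LAC, 3 of the 25 rose and 0 fell, a share below the 15.4% of all genes called, with a median of 0.02 against 0.03. ABCC3, an exporter of glutathione and glucuronide conjugates, rose most of the 3, from 24.6 ± 3.99 to 53.7 ± 6.75 CPM (SD, n = 4 each; log2 change 1.15 ± 0.13, edgeR adjusted p = 2.52e-08). PIR, an iron-binding nuclear protein, rose by 0.92 (edgeR adjusted p = 0.0258) and ME1, which makes NADPH from malate, by 0.44 (edgeR adjusted p = 0.0136). Beyond the parental response 2 of 25 were called, against 7.4% of all genes: ABCC3 was higher (1.12 ± 0.19, edgeR adjusted p = 0.000505) and FTH1, the ferritin heavy chain, was lower (-0.88 ± 0.27, edgeR adjusted p = 0.0332). FTH1 has many processed copies in the genome, so its counts are uncertain.

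In the parental line 2 of the 25 rose by 96 h and 0 fell, close to the 7.78% of all genes called: UGDH (0.46, edgeR adjusted p = 0.0151) and EPHX1 (0.45, edgeR adjusted p = 0.0345), enzymes of glucuronide and epoxide metabolism. In LB2 at 96 h 2 rose and 0 fell, against 3.55% of all genes. CYP4F11 rose from 0.293 ± 0.472 CPM (SD, n = 4) to 2.29 ± 0.616 (SD, n = 3; edgeR adjusted p = 0.0325), and ABCC3 rose by 0.76 ± 0.14 (edgeR adjusted p = 0.000561). In LB1 at 96 h, as a description, 0 were higher and 2 were lower (3.17% of all genes called), among them UGDH (-0.53).

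Around the cystine importer, 13 of 15 listed genes of cystine and glutathione handling were tested. SLC3A2, the heavy chain that anchors SLC7A11 in the membrane, was called in no comparison; in LAC it was at 640 ± 162 CPM at 0 h, 888 ± 76.1 at 16 h and, by 96 h, 696.5 ± 43.5 (SD, n = 4 each). In LAC at 0 h 1 gene was higher and 2 were lower than in the parental line, 3 of 13 against 15.8% of all genes, among them CTH, which makes cysteine from cystathionine (-1.05 ± 0.22, edgeR adjusted p = 0.000839). At 96 h in LAC 2 rose and 3 fell, 5 of 13 against 15.4%. MGST1, a membrane glutathione transferase, rose by 0.77 (edgeR adjusted p = 0.00149), while SLC7A5, a neutral amino acid transporter, fell by 0.59 (edgeR adjusted p = 0.0206). After trend removal, 2 rose and 0 fell. Beyond the parental response 1 was higher and 1 lower in LAC at 96 h, 2 of 13 against 7.4% of all genes. CHAC1, which degrades glutathione and is an ATF4 target, fell at 96 h in the parental line (-0.92 ± 0.13, edgeR adjusted p = 6.16e-06), in LAC (-0.48 ± 0.13, edgeR adjusted p = 0.00857) and in LB2 (-0.60 ± 0.14, edgeR adjusted p = 0.00792). In LB1, as a description, it was at 47.8 ± 1.33 CPM at 0 h (SD, n = 3) and 20.3 ± 2.67 at 96 h (SD, n = 4).

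All 17 listed genes of peroxide and lipid peroxide defence were tested. The counts and medians of this list include ACSL4 and TFRC, which are not defence enzymes. Neither was called in LAC at 96 h against 0 h (log2 change -0.02 and 0.19). In LAC at 0 h 5 were higher than in the parental line and 0 lower, 5 of 17 against 15.8% of all genes, with a median of 0.24 against -0.06, led by TXN2, mitochondrial thioredoxin (0.74, edgeR adjusted p = 0.00422), PRDX4 (0.65, edgeR adjusted p = 0.0339) and GPX1 (0.60, edgeR adjusted p = 0.0267). At 96 h in LAC 1 rose and 4 fell, 5 of 17 against 15.4%, with a median of -0.17 against 0.03. PRDX5 fell by 0.80 (edgeR adjusted p = 0.0176), GPX4, which reduces lipid peroxides, by 0.79 (edgeR adjusted p = 0.0118) and TXN2 by 0.74 (edgeR adjusted p = 0.00405). Beyond the parental response 0 of 17 were called in LAC at 96 h, against 7.4% of all genes, with a median of -0.21 against 0.06. In that difference 3 were lower without the libraries under 5000000 counts and 2 were lower after trend removal, with 0 higher in either. After trend removal 5 were higher and 2 lower in LAC at 0 h, and 1 rose and 3 fell in LAC at 96 h. The 0 h pattern was not particular to LAC. In LB2 at 0 h 5 of 17 were higher and 0 lower, against 8.21% of all genes, with a median of 0.35 against -0.03. After trend removal 7 were higher and 1 lower there. At 96 h in LB2 0 of 17 were called, against 3.55% of all genes, with a median of -0.25 against -0.0024.

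SLC7A11 is shared between NRF2 and ATF4, so ATF4 and its other targets were counted beside it, 17 of 18 tested; SLC3A2, SLC7A5, CHAC1 and CTH stand in this list and the previous one. In LAC at 0 h 6 were lower and 1 was higher than in the parental line, 7 of 17 against 15.8% of all genes, with a median of -0.32 against -0.06. ASNS, asparagine synthetase, was at 3.9 ± 0.531 CPM in LAC and 11.6 ± 1.61 in the parental line (SD, n = 4 each; log2 difference -1.55 ± 0.22, edgeR adjusted p = 2.44e-06), and DDIT4, an inhibitor of mTORC1, was lower by -1.12 (edgeR adjusted p = 0.000358). ATF4 itself was at 434 ± 28.7 and 496 ± 30.1 CPM (SD, n = 4 each; edgeR adjusted p = 0.214).

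With 96 h of auxin 0 of the 17 rose and 6 fell in the parental line, where 7.78% of all genes were called (median -0.34 against -0.03), led by ASNS (-1.38 ± 0.22, edgeR adjusted p = 3.87e-05), CHAC1 and DDIT4 (-0.89, edgeR adjusted p = 0.00681). In LB2 0 rose and 5 fell, against 3.55% (median -0.43 against -0.0024), and in LAC 1 rose and 5 fell, against 15.4% (median 0.10 against 0.03). ATF4 fell in the parental line (-0.34, edgeR adjusted p = 0.033), in LAC (-0.33, edgeR adjusted p = 0.0236) and in LB2 (-0.47, edgeR adjusted p = 0.0101). In LAC, ATF4 and 4 further listed genes fell over the same 96 h in which SLC7A11 rose; after trend removal, 2 of the 17 rose and 1 fell. In LAC beyond the parental response 5 were higher and 2 lower, 7 of 17 against 7.4% of all genes, led by ASNS (1.57 ± 0.31, edgeR adjusted p = 0.0022). For ASNS the parental level went from 11.6 ± 1.61 to 4.46 ± 0.858 CPM and the LAC level from 3.9 ± 0.531 to 4.55 ± 1.2 (SD, n = 4 each). After trend removal, 8 were higher and 0 lower in this difference. In LB1 at 96 h, as a description, 10 of 17 were lower and 0 higher (3.17% of all genes called), with a median of -0.74 against 0.04, among them PSAT1 at 571 ± 30.7 CPM at 0 h (SD, n = 3) and 289.5 ± 23.1 at 96 h (SD, n = 4).

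**Figure D5:**
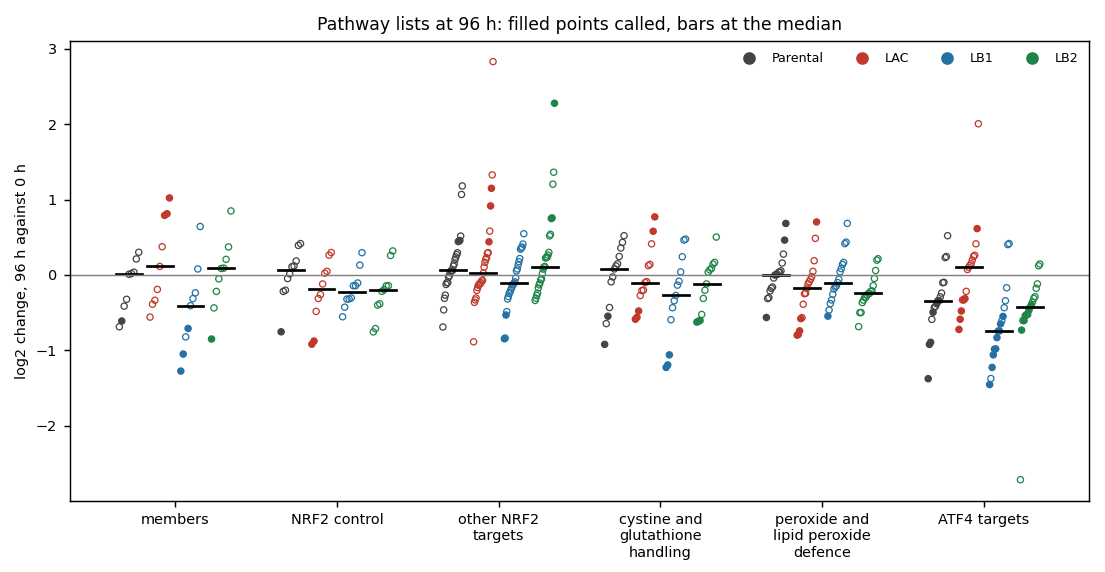
Log2 change at 96 h against 0 h of the same line (vertical axis) for every tested gene of the members and 5 pathway lists (horizontal axis), by line; filled points passed the edgeR threshold and bars mark the median. Members are spread on both sides of 0, with 3 filled points above it in LAC, 1 below it in the parental line and in LB2, and 3 below it in LB1, the line that chose the set; ATF4 targets lie mostly below 0 in the parental line, LB1 and LB2.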

How the data were processed

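Total RNA depleted of ribosomal RNA was sequenced in paired reads, per the labels' protocols. The deposited count table holds whole-number counts per gene made by the authors with featureCounts 1.6.4 in an nf-core/rnaseq 1.4.2 environment, per the file headers. The submitters' processing notes also name STAR 2.7.10a, SAMtools 1.10, deepTools 3.4.5, DESeq2 1.40.2 and GRCh38. The strand setting, annotation release and handling of multiply mapped reads are not given in the sources used here. The deposited length column, other than the counts, gives exon bases per gene and was used for RPKM only.

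Counts of 62756 genes in 46 libraries were fitted together with edgeR 4.0.16 (R 4.3.3), using TMM scaling, filterByExpr by group (21484 genes kept), 12 group coefficients and the quasi-likelihood test. P-values were adjusted by Benjamini-Hochberg over all genes kept, and an adjusted p under 0.05 was called. Differences in response are interaction contrasts against the parental line. Levels are TMM-scaled CPM; intervals are 95% and cover the spread between wells. Alternatives were RLE or library-size scaling, no filter, DESeq2 1.42.0, the compared groups alone, a block on replicate number, each replicate left out, libraries under 5000000 counts left out, and a GC and length trend removed from each library. For the pathway lists the last 2 were added after seeing the data. The scripts were tested on simulated counts.

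The 9 genes and all lists were chosen with earlier results of these data known. Every member is named; from each pathway list the text names up to 3 called genes with the largest change per comparison, and always KEAP1, BACH1, SLC3A2, ATF4 and CHAC1. CDH17, COL1A1, VIL1, ACSL4 and TFRC were named after their values were seen. Likeness to SLC7A11 used group means of log2 (CPM + 0.5) for genes with a mean of at least 5 CPM. Some genes of the lists are counted but not reported here by name.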

Additional observations from a re-analysis of the deposited data

Results flagged for a closer look

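Among 90 groups of 4 libraries examined for the 9 genes, 4 held a library set apart from the others, and all 4 were low; chance sets apart about 5% of such groups. NFE2L2 stood at 64.9 CPM in replicate 1 of LB2 at 0 h, against 125 to 134 CPM in the others; that library held 1894447 counts. GCLC stood at 15.2 CPM in replicate 3 of LB2 at 16 h, against 51.9 to 58.1 CPM, in the library of 479446 counts. SLC7A11 stood at 141 CPM in replicate 4 of the parental line at 16 h, against 163 to 166 CPM. GCLM stood at 66.4 CPM in replicate 3 of the parental line at 16 h, against 77.4 to 78.3 CPM.

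The response to auxin differed between LAC and the parental line for 3 of the genes by an interaction test. The log2 difference in response was 1.28 at 16 h and 1.23 at 96 h for SLC7A11, 0.77 at 96 h for GCLC and 0.72 at 96 h for NQO1. All 4 values rest on 0 h libraries in which LAC already lay below the parental line.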

How the results depend on the processing

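Of 21 called changes of the 9 genes, counting TXNRD1 in LB1 at 0 h, which the report only describes, 10 stayed called in every alternative and 11 were lost in at least 1, in 40 of 366 alternative fits in all; 0 reversed. Number of the 9 genes called, where it moved by more than 1.5 times: in the parental line at 16 h (main 1) 2 with RLE scaling, library size only, GC and length trend removed, DESeq2 and compared groups only, and 0 without the low-count filter; at 96 h (main 1) 2 with RLE, library size only, DESeq2 and compared groups only, and 3 without libraries under 5000000 counts and with the trend removed. LAC at 16 h gave 0 with compared groups only, and at 96 h 5 with DESeq2. LB1 at 16 h gave 1 without the shallow libraries. LB2 at 16 h gave 2 with the trend removed and 0 with compared groups only, and at 96 h 2 without the shallow libraries and 3 with the trend removed or DESeq2. The LAC response minus the parental one gave 3 at 16 h with RLE, library size only, the trend removed and DESeq2, and 1 at 96 h without the filter. At 0 h LB1 gave 0 without the filter and 2 with compared groups only, and LB2 gave 0 with either. Leaving out single replicates gave 0 to 1 genes for the parental line at 16 h, LB2 at 16 h and LB1 at 0 h, and 1 to 2 for the parental line at 96 h, LB2 at 96 h, LB2 at 0 h and the LAC response difference at 16 h.

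Uncalled SLC7A11 changes of LB2 near 0 changed sign. At 16 h the log2 change was -0.0335 with the trend removed and -0.00736 to 0.27 with single replicates left out. The difference from the parental response at 96 h was 0.0364 with RLE, 0.13 with library size only, 0.0325 with DESeq2 and -0.17 to 0.0919 with single replicates left out. Against the parental line at 0 h it was 0.0379 without the shallow libraries and -0.25 to 0.0014 with single replicates left out. Where no construction shows it, the cause was not tested.

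The labels tie no wells of the same number, and 117 of 243 same-number pairs of libraries, not all, had deviations correlated above 0.1, so the numbers were not taken as pairing. The correlation ran from -0.71 to 0.85 with a median of 0.08, against -0.0092 for other numbers, and 25 of 46 libraries were closest to their own number, a hint from the data and not the design. The fit with a replicate block changed no count of the 9 genes; SLC7A11 in the LAC response minus the parental one stayed at 1.28 at 16 h and 1.23 at 96 h. With library size as the only scaling, the all-gene median of LAC at 0 h went from -0.06 to -0.24 and, for the response difference at 96 h, from 0.06 to 0.27; SLC7A11 kept its direction there. RLE scaling moved the share of higher calls over all genes in LAC at 16 h from 74.9% to 51.6%. In the shallowest library 3 counts came to 6.26 CPM, above every group mean of GPX2.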
